A study of Mus musculus with 12 samples.

Results

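The results below cover 10 amino acid transporters of the plasma membrane that are associated with the response to amino acid shortage and other stress, namely Slc7a11, Slc7a5, Slc3a2, Slc7a1, Slc7a3, Slc38a2, Slc1a4, Slc1a5, Slc6a9 and Slc7a6. They were taken by name from the 55487 genes of both count tables, in a choice made with earlier results of these data known, and each symbol matched 1 Ensembl gene. The tables come from B16F10 cells, a mouse melanoma line, transduced with a lentiviral short hairpin RNA. The cells carried either a control hairpin (shCtr, tagged WT in the labels) or hairpin number 2 against Osgep (shOSGEP, tagged KD OSGEP), the catalytic subunit of the KEOPS complex. Ribosome-protected fragments (RPF, footprints) and total RNA were sequenced from 3 replicates of each, which gave 12 libraries in 4 groups. KEOPS places the t6A modification beside the anticodon of the tRNAs for ANN codons, whose first base is A. The replicates were separate transductions of a pool of selected cells, so a group is 1 line with 1 hairpin, and every effect of the hairpin on other transcripts is shared by all shOSGEP libraries.

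Amino acid transporters of this group belong to a few families that work as exchangers or as sodium-coupled carriers. When eIF2 alpha is phosphorylated, the transcription factor ATF4 is translated and binds C/EBP-ATF response elements near many transporter genes, while NRF2 acts through antioxidant response elements and is known as a further regulator of Slc7a11. Slc3a2 (4F2hc, CD98) is the heavy chain that carries light chains of the SLC7 family to the membrane. Its light chain Slc7a5 (LAT1) exchanges glutamine for leucine and other large neutral amino acids, Slc7a6 (y+LAT2) exchanges arginine for neutral amino acids, and Slc7a11 (xCT) exchanges glutamate for cystine, the precursor that limits glutathione synthesis. Slc7a1 (CAT1) and Slc7a3 (CAT3) import arginine and lysine, and Slc38a2 (SNAT2) is a sodium-coupled carrier of small neutral amino acids. Slc1a4 (ASCT1) and Slc1a5 (ASCT2) exchange serine, alanine, cysteine or, for Slc1a5, glutamine, and Slc6a9 (GLYT1) imports glycine.

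By the GENCODE annotation of GRCm38, all 10 are protein-coding genes. On the minus strand lie Slc7a11 (chr3:49892526-50443614), Slc7a5 (chr8:121881150-121907694), Slc3a2 (chr19:8706882-8723369), Slc7a1 (chr5:148327410-148399904), Slc7a3 (chrX:101079210-101086020), Slc38a2 (chr15:96687392-96699730) and Slc1a4 (chr11:20302180-20332713). On the plus strand lie Slc1a5 (chr7:16781340-16798274), Slc6a9 (chr4:117834506-117875198) and Slc7a6 (chr8:106168857-106198706). Exons of Slc6a9 share 1429 bases with Ccdc24, 511 bases with Gm17114 and 46 bases with B4galt2, all on the opposite strand, and whether strand was used in counting is not given in the sources used here. Reads of Slc6a9 and of these neighbours may therefore not have been told apart. The exons of the other 9 genes shared no bases with exons of another annotated gene.

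RefSeq promoters (GRCm38.p6, 250 bases before to 50 after a start) were given for 7 of the 10 genes, in 11 entries. Slc7a5, Slc1a5 and Slc7a3 had no entry. The core of the C/EBP-ATF element was searched as TGATGNAA on both strands, and 2 of the 7 genes held it, against 4.51% of 27025 genes in the table. Among the 14 genes of the ATF4 pathway list used further on, 5 held it. The Slc7a11 promoter had 2 matches, which lie on opposite strands and do not overlap, and the Slc1a4 promoter had 1 match across the annotated start. Both sequences are shown because the measurements of these genes differ, and the matches are in capitals. The first stretch is chr3:50443614-50443863 and the second is chr11:20332706-20332963, each on the minus strand and written 5′ to 3′.
Slc7a11: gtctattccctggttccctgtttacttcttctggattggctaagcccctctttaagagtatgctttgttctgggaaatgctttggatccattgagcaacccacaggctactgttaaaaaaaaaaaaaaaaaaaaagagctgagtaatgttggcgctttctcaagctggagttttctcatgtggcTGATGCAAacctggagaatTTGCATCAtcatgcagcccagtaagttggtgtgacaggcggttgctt
Slc1a4: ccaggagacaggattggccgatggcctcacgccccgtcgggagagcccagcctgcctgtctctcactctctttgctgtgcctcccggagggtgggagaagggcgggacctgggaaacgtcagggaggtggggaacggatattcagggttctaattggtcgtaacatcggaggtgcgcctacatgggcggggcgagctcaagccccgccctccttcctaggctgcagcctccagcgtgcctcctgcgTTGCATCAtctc
The core of the antioxidant element, searched as TGACNNNGC on both strands, was found in Slc7a1, Slc38a2, Slc6a9 and Slc7a6, 4 of the 7 genes, against 14% of all genes with an entry. In Slc7a11 these letters were not in the window. Such matches describe the sequence and are not evidence of binding. Introns and other sequence outside the window were not searched, so a gene without a match may hold a core elsewhere.

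The RPF libraries held 12850642 to 40343700 counts, of which 4417284 to 17017589 fell in protein-coding genes, and the total RNA libraries held 46717840 to 81073416 counts. A single rRNA gene took 67.5% of the counts of shOSGEP RPF replicate 1 and 26.1 to 44.2% of those of the other RPF libraries. Osgep itself had 13.9, 15.7 and 15.3 CPM (counts scaled to library size, with TMM factors) in shCtr total RNA and 0.589, 6.92 and 6.77 in shOSGEP replicates 1, 2 and 3, so the groups did not overlap. In footprints Osgep was at 7.72, 7.27 and 4.71 CPM in shCtr and 4.87, 3.81 and 2.36 CPM in shOSGEP, lower in all 3 pairs but with overlapping groups and with the smallest difference in pair 1. The ratio of its footprint CPM to its RNA CPM was 8.27 in shOSGEP replicate 1 and 0.308 to 0.557 in the other samples. Why the assays differ in that replicate was not tested. Over the 7 melanocyte markers, the summed total RNA level was 2655 CPM in shOSGEP replicate 1 and 9665 to 16837 CPM in the other 5 libraries. The 4 fibroblast markers summed to 25.3 CPM of total RNA there against 6.51 to 10.3 CPM elsewhere, but did not move together. In pair 1 the log2 difference was 3.73 for Col1a1, 1.01 for Pdgfra and -1.42 for Col1a2, and Dcn was at most 0.0620 CPM in any library. In footprints the sum was 12.6 CPM in shOSGEP replicate 1 and 4.85 to 14.4 CPM in the others. Leukocyte, keratinocyte and endothelial markers summed to at most 5.56 CPM in any total RNA library. Replicate 1 of shOSGEP thus stood apart in Osgep RNA, in the rRNA share of its footprints and in melanocyte marker RNA. In bulk samples, fewer cells of a type and less RNA per cell cannot be told apart.

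In shOSGEP cells the 10 transporters did not move as a group. Slc1a4 and Slc6a9 were higher in both assays in all 3 replicate pairs, Slc1a5 was higher in footprints, and the remaining 6 measured genes had fitted changes between -0.21 and 0.42 on the log2 scale. The filter on low counts kept 9 of the 10 in each fit and dropped Slc7a3. By edgeR's quasi-likelihood test with Benjamini-Hochberg adjustment, none of the 9 passed an adjusted p of 0.05 in RPF, total RNA or their ratio, and neither did any other gene (0% of the genes tested in each comparison, 13529, 14516 and 12560 genes, of which 139, 259 and 17 had an unadjusted p below 0.05). DESeq2 and limma voom also called 0 of the 9. The adjusted p-values of the 9 were 0.9998 in RPF and from 0.975 to 0.999995 in total RNA. With an unadjusted p below 0.05, 1 transporter was higher in total RNA (1.52% of all genes) and 0 were higher in RPF (0.754%) or in the ratio (0.0717%). The median change of the 9 was 0.21 in total RNA and -0.10 in RPF, against 0.02 and 0.05 over all genes tested.

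Counted by replicate pair, 2 of the 9 were higher in shOSGEP in all 3 pairs in total RNA (17.7% of all genes), 3 in RPF (15.6%) and 1 in the ratio (11.6%). Lower in all 3 pairs were 0 in total RNA (16.2% of all genes), 1 in RPF (15.2%) and 3 in the ratio (11.2%). The groups did not overlap, with shOSGEP higher, for 1 transporter in total RNA (4% of all genes), 1 in RPF (2.43%) and 0 in the ratio (2.03%). Replicate numbers paired the libraries, and with the replicate block 2 transporters in total RNA (2.51% of all genes) and 1 in RPF (2.54%) had an unadjusted p below 0.05 and a higher level, with adjusted p-values of at least 0.721 and 0.817.

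**Figure D1:**
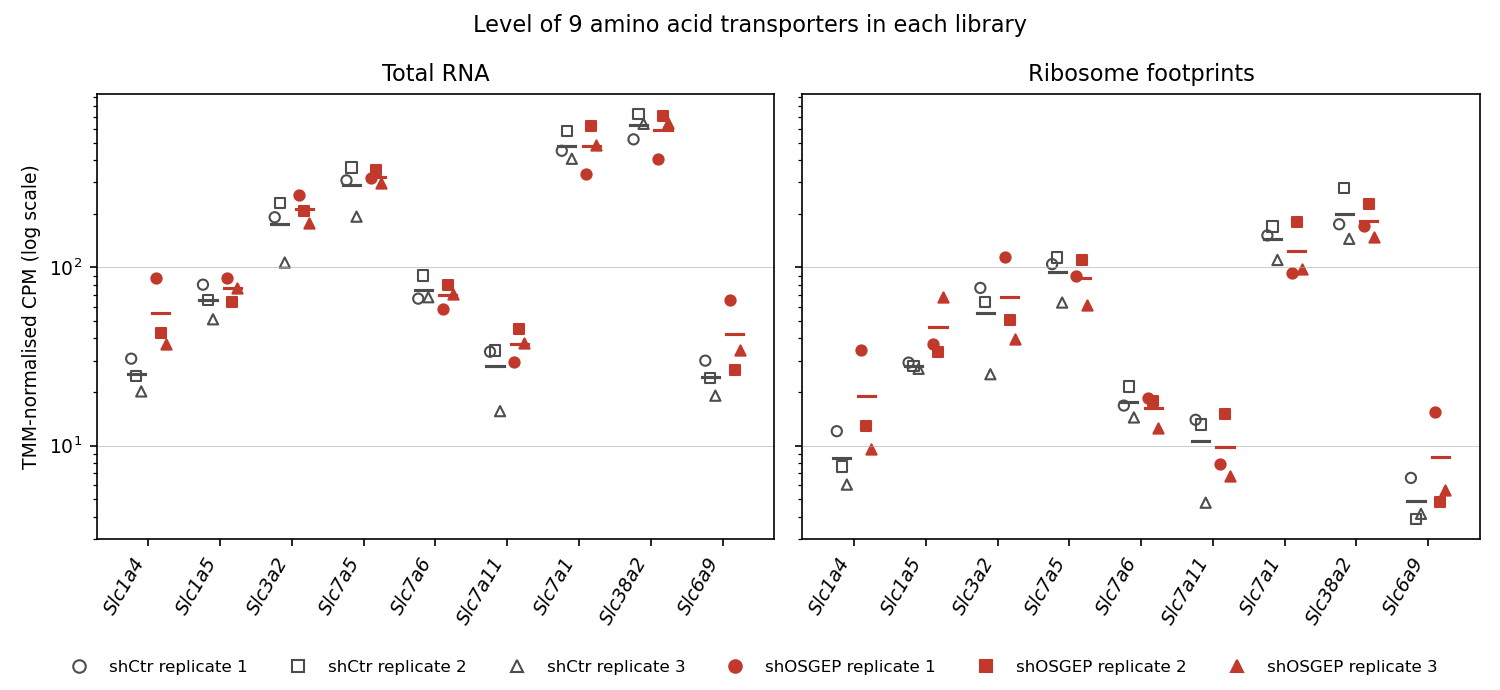
TMM-normalised CPM (log scale) of 9 transporters in total RNA (left) and ribosome footprints (right), with shCtr open, shOSGEP filled, marker shape for the replicate number and a bar for the group mean. The shOSGEP libraries of Slc1a4 lie above all shCtr libraries in total RNA, and those of Slc1a5 in footprints, while the other genes overlap between groups.

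Slc1a4, the exchanger of serine, alanine and cysteine, had the largest fitted change of the 9 tested transporters in both assays. Its total RNA level was 30.8, 24.7 and 20.2 CPM in shCtr replicates 1, 2 and 3 and 86.8, 43.1 and 37.4 CPM in shOSGEP. All 3 shOSGEP libraries lay above all shCtr libraries, and replicate 1 was the highest of both groups. The fitted change was 1.15 ± 0.35 (log2, SE, n = 3 per group) with an unadjusted p of 0.0139 and an adjusted p of 0.975 (edgeR). With the replicate block it was 1.06 ± 0.18 (unadjusted p = 0.00244, adjusted p = 0.721, edgeR). Without shOSGEP replicate 1 the change was 0.66 and without both replicates numbered 1 it was 0.83 (unadjusted p = 0.00857 and 0.00208, edgeR).

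Footprints on Slc1a4 followed the same order. They were at 12.1, 7.64 and 6.05 CPM in shCtr and 34.5, 12.9 and 9.56 CPM in shOSGEP, from 126 to 418 counts a library. The groups overlapped only because shCtr replicate 1 exceeded shOSGEP replicate 3. The 3 pairs differed by 1.51, 0.76 and 0.65 on the log2 scale and the fitted change was 1.14 ± 0.54 (unadjusted p = 0.0704, adjusted p = 0.9998, edgeR; with the replicate block, unadjusted p = 0.00799). Without shOSGEP replicate 1 it was 0.38 (unadjusted p = 0.319, edgeR).

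Slc1a5, the glutamine exchanger of the same family, differed in footprints more than in RNA. Its footprint level was 29.2, 28.1 and 27.0 CPM in shCtr and 37.2, 33.7 and 68.3 CPM in shOSGEP. The shCtr libraries were close together, all shOSGEP libraries were above them, and replicate 3 was far above the other two. The fitted change was 0.72 ± 0.33 (unadjusted p = 0.0629, adjusted p = 0.9998, edgeR) and fell to 0.33 without shOSGEP replicate 3 (unadjusted p = 0.251). The replicate block gave 0.65 ± 0.27 (unadjusted p = 0.0584, adjusted p = 0.817, edgeR). In total RNA Slc1a5 was at 80.1, 65.8 and 51.2 CPM in shCtr and 87.1, 64.3 and 77.2 CPM in shOSGEP, with overlapping groups and a fitted change of 0.21 ± 0.21.

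The balance between the exchangers differed accordingly. Per exon length, Slc1a4 made up 29.0, 28.5 and 29.5% of the summed Slc1a4 and Slc1a5 RNA in shCtr and 51.4, 41.6 and 34.0% in shOSGEP, so that the groups did not overlap. Per coding length, its share of their footprints was 30.1, 22.1 and 18.9% in shCtr and 49.2, 28.6 and 12.7% in shOSGEP. In footprints the share was higher in pairs 1 and 2 and lower in pair 3, the pair in which Slc1a5 was highest. These shares are a description without a test.

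**Figure D2:**
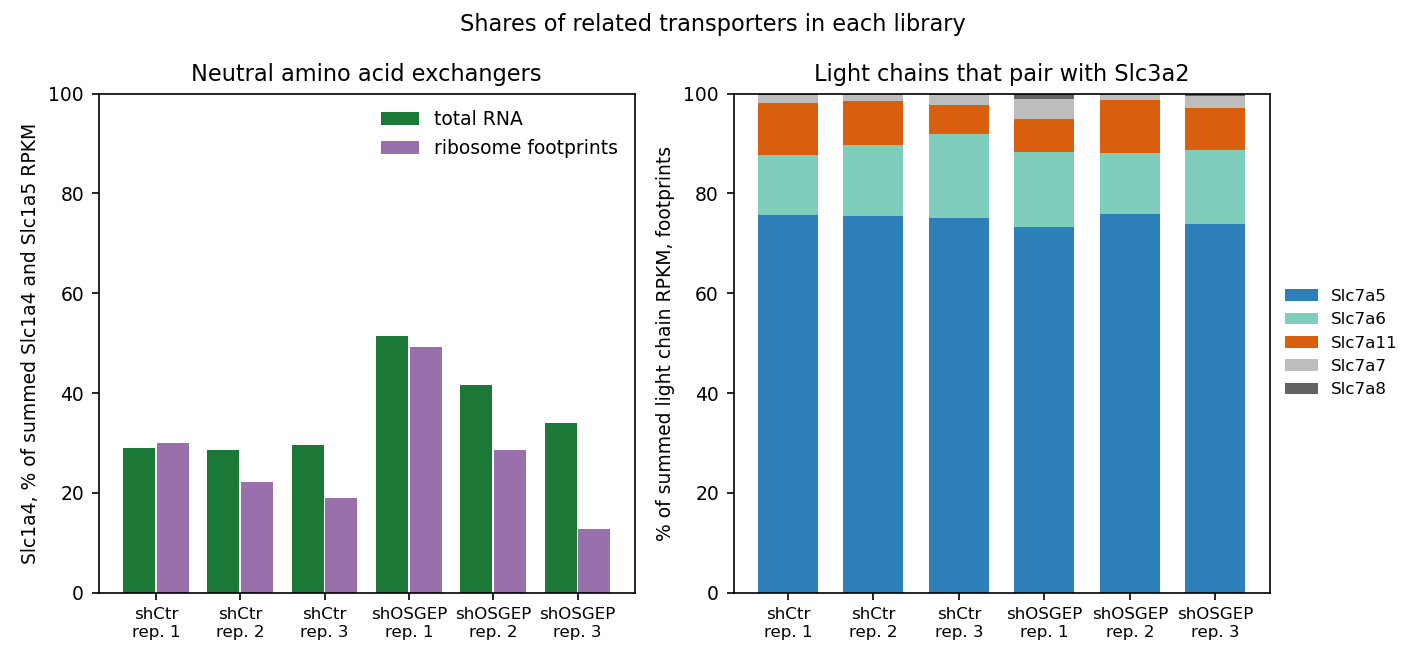
Left, Slc1a4 as a percentage of the summed Slc1a4 and Slc1a5 RPKM in each cell sample, for total RNA and footprints. Right, percentage of the summed footprint RPKM of the light chains that pair with Slc3a2. The RNA share of Slc1a4 is 28.5 to 29.5% in shCtr and 34.0 to 51.4% in shOSGEP, while Slc7a5 takes 73.2 to 75.8% of light chain footprints in every library.

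Slc6a9, the glycine importer, was higher in all 3 pairs in both assays, most of all in pair 1. Its total RNA level was 30.0, 23.8 and 19.1 CPM in shCtr and 65.4, 26.7 and 34.4 CPM in shOSGEP. The groups overlapped, since shCtr replicate 1 exceeded shOSGEP replicate 2. The fitted change was 0.79 ± 0.36 (unadjusted p = 0.0617, adjusted p = 0.975, edgeR), and with the replicate block 0.71 ± 0.22 (unadjusted p = 0.0243, adjusted p = 0.721). Footprints were at 6.59, 3.88 and 4.15 CPM in shCtr and 15.4, 4.86 and 5.65 CPM in shOSGEP, again with replicate 1 of shOSGEP above the rest. The fitted footprint change was 0.82 ± 0.51 (unadjusted p = 0.157, adjusted p = 0.9998, edgeR), on 64 to 218 counts a library. The replicate block gave 0.66 ± 0.28 (unadjusted p = 0.0556, adjusted p = 0.817, edgeR). Without shOSGEP replicate 1 the RNA change was 0.32 (unadjusted p = 0.176, edgeR) and the footprint change was 0.099 (unadjusted p = 0.787, edgeR). Without both replicates numbered 1 they were 0.50 and 0.38. That library is the one with the lowest melanocyte marker sum, and the part of this in the level of Slc6a9 was not tested.

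Slc3a2 and its light chains Slc7a5 and Slc7a6 did not differ between the groups beyond the spread of the replicates. Slc3a2 RNA was at 191, 230 and 107 CPM in shCtr and 256, 206 and 178 CPM in shOSGEP. It was higher in pairs 1 and 3 and lower in pair 2, with overlapping groups and a fitted change of 0.28 ± 0.30. Slc3a2 footprints were at 76.7, 63.7 and 25.2 CPM in shCtr and 115, 50.8 and 39.8 CPM in shOSGEP, a fitted change of 0.31 ± 0.55 with the same order of pairs.

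Slc7a5, the most abundant light chain, was at 308, 364 and 193 CPM of total RNA in shCtr and 316, 352 and 299 CPM in shOSGEP. Replicate 3 of shCtr was the lowest library, and the fitted change was 0.16 ± 0.24. Its footprints were at 104, 114 and 63.5 CPM in shCtr and 89.5, 109 and 61.3 CPM in shOSGEP, lower in all 3 pairs by 0.22, 0.05 and 0.05 on the log2 scale. The fitted footprint change was -0.11 ± 0.35 (unadjusted p = 0.758, edgeR). Slc7a6 had fitted changes of -0.10 ± 0.19 in RNA and -0.11 ± 0.27 in footprints, with overlapping groups in both. Among the light chains, Slc7a5 took 74.1 to 80.9% of the summed RNA RPKM and Slc7a6 took 12.2 to 21.2%.

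Slc7a11, the cystine-glutamate exchanger, was without a common direction among the pairs. Its RNA was at 33.7, 34.2 and 15.6 CPM in shCtr and 29.4, 45.1 and 37.5 CPM in shOSGEP. It was lower in pair 1 and higher in pairs 2 and 3, by -0.19, 0.40 and 1.26 on the log2 scale, and the low level of shCtr replicate 3 set the last of these. The fitted change was 0.42 ± 0.33 (unadjusted p = 0.235, adjusted p = 0.975, edgeR), and 0.13 without shCtr replicate 3. Its footprints were at 14.0, 13.2 and 4.79 CPM in shCtr and 7.93, 15.0 and 6.74 CPM in shOSGEP, with pair differences of -0.81, 0.19 and 0.49. The fitted footprint change was -0.10 ± 0.50. Replicate 1 of shOSGEP, which had the highest Slc1a4 and Slc6a9 levels, was below shCtr replicate 1 for Slc7a11 in both assays. In pair 1 Slc7a11 was thus lower and Slc1a4 higher in both assays. In pairs 2 and 3 both genes were higher in both assays. Both held the C/EBP-ATF core in the promoters printed above, and its part in these levels was not tested. Slc7a11 gave 5.77 to 10.6% of light chain footprints and 1.60 to 2.76% of light chain RNA per length.

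The cationic carrier Slc7a1 and the carrier Slc38a2 were among the most abundant members and had fitted changes near 0 in RNA. Slc7a1 RNA was at 451, 582 and 407 CPM in shCtr and 335, 624 and 483 CPM in shOSGEP, a fitted change of 0.00 ± 0.26 with pair 1 lower and pairs 2 and 3 higher. Its footprints were at 151, 170 and 110 CPM in shCtr and 93.0, 181 and 98.6 CPM in shOSGEP, a fitted change of -0.21 ± 0.37. Replicate 1 of shOSGEP was the lowest library of Slc7a1 in both assays. Slc38a2 RNA was at 523, 728 and 639 CPM in shCtr and 405, 710 and 649 CPM in shOSGEP, with a fitted change of -0.10 ± 0.25 and overlapping groups. Its footprints were at 175, 280 and 145 CPM in shCtr and 170, 227 and 148 CPM in shOSGEP, a fitted change of -0.14 ± 0.37. Slc7a3 was close to absent, with 0 to 8 counts in the RPF libraries and 1 to 8 in the total RNA libraries, and its change could not be measured at this depth. Slc7a1 therefore made up at least 99.7% of the summed RPKM of Slc7a1, Slc7a2 and Slc7a3 in every library.

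**Figure D3:**
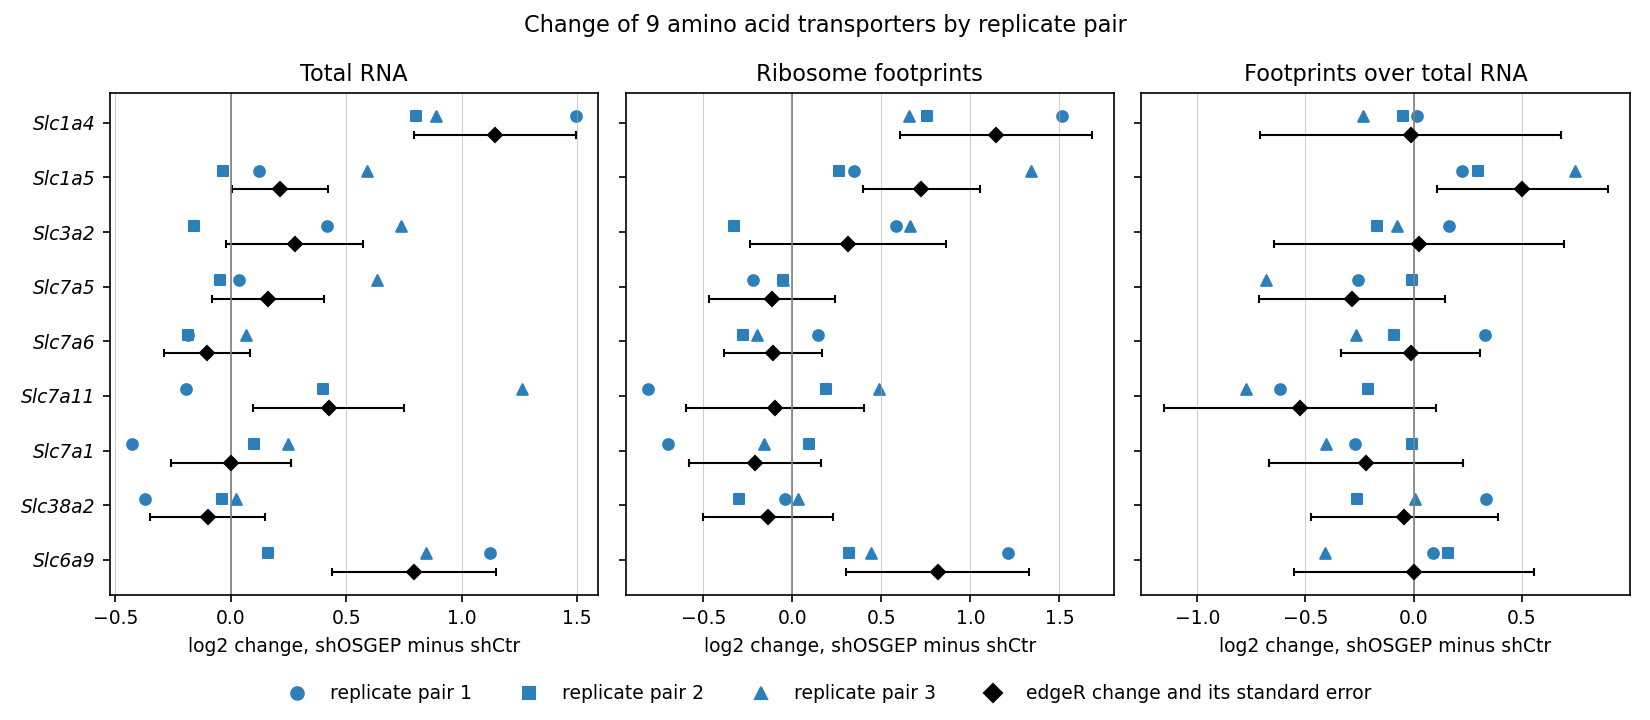
Log2 change, shOSGEP minus shCtr, of 9 transporters in each replicate pair (blue, log2 CPM with a prior count of 2) and as fitted by edgeR with its standard error (black), for total RNA, footprints and their ratio. Slc1a4 lies between 0.80 and 1.49 in the pairs of total RNA and near 0 in the ratio, while Slc7a11 lies below 0 in all 3 pairs of the ratio.

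The ratio of footprints to total RNA, the translational efficiency, was fitted over all 12 libraries, with the genotype effect allowed to differ between the assays. Slc1a5 was higher in all 3 pairs, with ratios of CPM of 0.365, 0.427 and 0.528 in shCtr and 0.426, 0.525 and 0.886 in shOSGEP. The groups overlapped and the fitted change was 0.50 ± 0.39 (unadjusted p = 0.230, adjusted p = 0.99999, edgeR). Slc7a11, Slc7a5 and Slc7a1 were lower in all 3 pairs. For Slc7a11 the ratios were 0.415, 0.385 and 0.306 in shCtr and 0.269, 0.333 and 0.180 in shOSGEP, overlapping by 1 library, and the fitted change was -0.53 ± 0.63 (unadjusted p = 0.419, edgeR; with the replicate block by cell sample, -0.54 ± 0.28 and unadjusted p = 0.0895).

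For Slc7a5 the ratios were 0.339, 0.312 and 0.330 in shCtr and 0.284, 0.311 and 0.205 in shOSGEP. The groups did not overlap, which held for 1 transporter with shOSGEP lower (2.31% of all genes), but the nearest libraries differed only in the third decimal. The fitted change was -0.28 ± 0.43 (unadjusted p = 0.523, edgeR). Slc7a1 had a fitted change of -0.22 ± 0.45. The ratios of Slc1a4, Slc6a9, Slc3a2, Slc38a2 and Slc7a6 had fitted changes between -0.04 and 0.02, with standard errors from 0.32 to 0.69. For Slc1a4, the higher footprint level went with the higher RNA level, and the pairs of its ratio differed by 0.02, -0.05 and -0.24.

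Between genes, levels were compared per length, as RPKM over the coding length for footprints and over the exon length for total RNA. In shCtr footprints Slc38a2 stood first with 132 ± 46.8 RPKM (SD, n = 3), followed by Slc7a1 with 77.0 ± 16.3, Slc7a5 with 61.1 ± 17.4 and Slc3a2 with 32.6 ± 15.8. Slc1a5 followed with 16.9 ± 0.674, Slc7a6 with 11.4 ± 2.32, Slc7a11 with 7.06 ± 3.38, Slc1a4 with 5.38 ± 1.95 and Slc6a9 with 2.55 ± 0.782. The replicate ranges overlapped between neighbours from Slc7a1 to Slc1a5 and between Slc7a11 and Slc1a4, and the other neighbours were apart. In shCtr total RNA the order was Slc7a5 (77.7 ± 23.6 RPKM), Slc38a2 (71.3 ± 11.6), Slc3a2 (49.9 ± 17.9), Slc7a1 (41.6 ± 7.87), Slc7a6 (16.4 ± 2.86), Slc1a5 (15.7 ± 3.46), Slc1a4 (6.42 ± 1.36), Slc6a9 (4.73 ± 1.06) and Slc7a11 (2.00 ± 0.758). Here the ranges were apart between Slc7a1 and Slc7a6, between Slc1a5 and Slc1a4, and between Slc6a9 and Slc7a11. Slc7a3 was last in both, at 0.0362 RPKM of footprints and 0.0158 RPKM of RNA.

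Slc7a11 had a high footprint level for its RNA level. Its footprint to RNA ratio per length was 3.41 ± 0.519 in shCtr, against a median of 1.16 over 11266 protein-coding genes, and lay between the percentiles 87.0 and 93.9 in the 3 shCtr libraries. With the length of a single transcript in place of all exons these percentiles were 87.9 to 94.4. Slc6a9 lay at the other end, between the percentiles 5.42 and 14.9 (1.18 to 2.78 by a single transcript), and reads of the neighbours that overlap its exons may be among its counts. The coding length was used for footprints on the assumption that their counts lie in the coding sequence, which the sources used here do not state. Since the isoforms in use are also unknown, such ratios depend on the annotated lengths.

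The share of ANN codons, those read by the tRNAs that carry t6A, ranged among the 10 coding sequences from 23.4% in Slc1a5 to 29.6% in Slc38a2, against a median of 27.0% over the 11266 genes. Slc7a11 had 27.9% and Slc1a4 28.0%, Slc7a5 24.6%, Slc3a2 24.4%, Slc7a1 26.4%, Slc7a6 26.2%, Slc6a9 24.6% and Slc7a3 24.4%. Slc1a5, with the lowest share, had the highest fitted change of the ratio. Slc38a2, with the highest share, had -0.04 ± 0.43. The other tested genes below the median share, Slc7a5, Slc3a2, Slc6a9, Slc7a1 and Slc7a6, had -0.28, 0.02, 0.00, -0.22 and -0.01. Slc7a11 and Slc1a4, above the median share, had -0.53 and -0.01. With 9 genes no relation was tested.

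**Figure D4:**
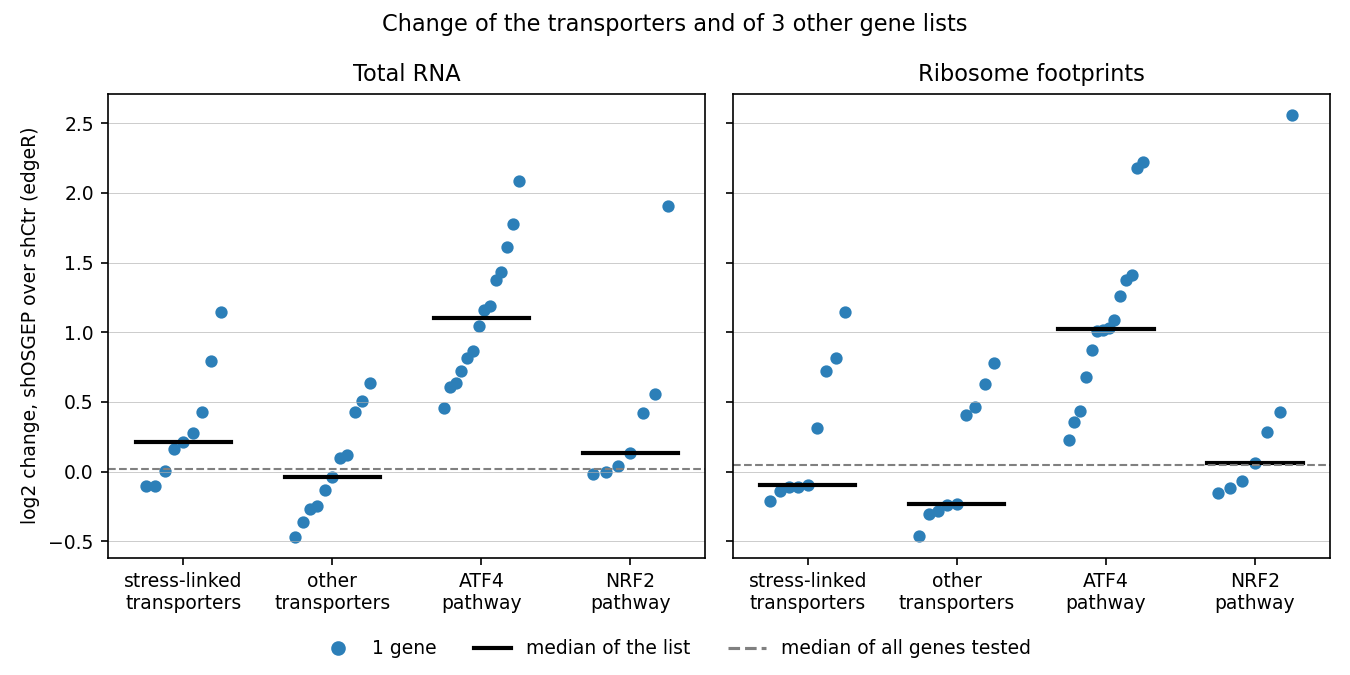
Fitted log2 change (edgeR) of each tested gene of 4 lists in total RNA (left) and footprints (right), with the median of the list (bar) and of all genes tested (dashed). The 9 transporters have medians of 0.21 and -0.10, while the 14 ATF4 pathway genes have medians of 1.10 and 1.02.

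Regulators and further targets of the ATF4 pathway were higher in every pair. All 14 genes of the ATF4 pathway list, which include Atf4 itself, its partner Ddit3 (CHOP), the pseudokinase Trib3 and the glutathione-cleaving enzyme Chac1, were higher in shOSGEP in all 3 pairs in total RNA and in RPF, where 17.7% and 15.6% of all genes were. None passed an adjusted p of 0.05, and the unadjusted p was below 0.05 for 8 of 14 in total RNA (1.52% of all genes) and 4 of 14 in RPF (0.754%), and with the replicate block for 13 (2.51%) and 10 (2.54%). These counts changed when libraries were left out, as did the counts over all genes. The direction held, with 13 or 14 of the 14 genes higher in every such fit of total RNA and of RPF. In total RNA the count was 2 without shCtr replicate 2 (82 of 15108 genes tested, either direction) and 3 without shCtr replicate 3 (261 of 14992). It was 4 without shOSGEP replicate 1 (281 of 14818 genes) and 14 without shOSGEP replicate 2 (967 of 15059). Without both replicates numbered 3 it was 1 (145 of 14630 genes). In RPF the count was 1 without shCtr replicate 2 (84 of 14331 genes) and 1 without shOSGEP replicate 3 (236 of 13675). It was also 1 without both replicates numbered 1 (121 of 14166 genes). Without shOSGEP replicate 2 it was 10 (563 of 14287 genes), and without both replicates numbered 3 it was 0 (70 of 13201). The groups did not overlap, with shOSGEP higher, for 4 of 14 in total RNA (4% of all genes) and 1 of 14 in RPF (2.43%). The median change of the list was 1.10 in total RNA, 1.02 in RPF and -0.12 in the ratio. Without shOSGEP replicate 1 the medians were 0.44 in total RNA and 0.52 in RPF. The list and the transporters were not tested against each other, and both were chosen with earlier results of these data known.

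Trib3 RNA was at 28.7, 16.6 and 10.9 CPM in shCtr and 145, 34.0 and 59.5 CPM in shOSGEP, a fitted change of 2.08 ± 0.59 (unadjusted p = 0.0101, adjusted p = 0.975, edgeR). The replicate block gave 1.95 ± 0.33 (unadjusted p = 0.00238, adjusted p = 0.721, edgeR). Chac1 RNA was at 29.4, 14.5 and 17.7 CPM in shCtr and 104, 24.8 and 37.8 CPM in shOSGEP, a fitted change of 1.43 ± 0.56 (unadjusted p = 0.0369, edgeR). The replicate block gave 1.23 ± 0.23 (unadjusted p = 0.00385, adjusted p = 0.721, edgeR). For both, replicate 1 of shOSGEP was the highest library, as for Slc1a4 and Slc6a9. Without it the RNA change was 1.31 for Trib3 (unadjusted p = 0.0112, edgeR) and 0.60 for Chac1 (unadjusted p = 0.0946, edgeR). Atf4 RNA was at 242, 264 and 274 CPM in shCtr and 441, 347 and 402 CPM in shOSGEP without overlap, a fitted change of 0.61 ± 0.15 (unadjusted p = 0.00479, adjusted p = 0.975, edgeR). The replicate block gave 0.60 ± 0.14 (unadjusted p = 0.00957, adjusted p = 0.721, edgeR). Atf4 footprints were at 55.8, 60.8 and 96.0 CPM in shCtr and 88.1, 77.8 and 122 CPM in shOSGEP. They were higher in all 3 pairs, with overlapping groups and a fitted change of 0.44 ± 0.33 (unadjusted p = 0.231, adjusted p = 0.9998, edgeR). The replicate block gave 0.45 ± 0.20 (unadjusted p = 0.0651, adjusted p = 0.817, edgeR). The Atf4 ratio was lower in all 3 pairs, with a fitted change of -0.18 ± 0.36. Ddit3 had fitted changes of 0.63 ± 0.32 in RNA and 1.03 ± 0.48 in footprints.

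Of the 8 NRF2 pathway genes 7 were tested, with medians of 0.13 in total RNA and 0.06 in RPF. Of these, 4 were higher in all 3 pairs in total RNA (17.7% of all genes), namely Hmox1, Gclm, Gclc and Srxn1, and 2 in RPF (15.6%), namely Hmox1 and Gclc. Gclc and Srxn1 are named here after their values were seen. Hmox1, the heme-degrading enzyme, was the only gene of the list at an unadjusted p under 0.05, with fitted changes of 1.91 ± 0.69 and 2.56 ± 0.98. Its RNA was at 36.4, 51.9 and 37.3 CPM in shCtr and 342, 74.2 and 54.9 CPM in shOSGEP, so that replicate 1 was far above the others. With the replicate block its changes were 1.38 (unadjusted p = 0.0856, edgeR) and 1.60 (unadjusted p = 0.0631, edgeR), and without shOSGEP replicate 1 they were 0.62 (unadjusted p = 0.0156, edgeR) and 0.51 (unadjusted p = 0.176, edgeR). Nfe2l2, which encodes NRF2, had a fitted RNA change of -0.01 ± 0.14, and Gclm, a subunit of the enzyme that starts glutathione synthesis, 0.56 ± 0.26. Of 34 other amino acid transporters, 11 were tested in total RNA and 9 in RPF and in the ratio. Of these, 0 had an unadjusted p under 0.05 in either direction, against 259 of 14516, 139 of 13529 and 17 of 12560 genes. Higher in all 3 pairs were 0 in total RNA (17.7% of all genes), 0 in RPF (15.6%) and 0 in the ratio (11.6%). Lower in all 3 pairs were 2 in total RNA (16.2% of all genes), 0 in RPF (15.2%) and 1 in the ratio (11.2%). The medians of these transporters were -0.04, -0.24 and 0.01. The 4 with the smallest p in total RNA were Slc6a6 (-0.36 ± 0.22), Slc43a2 (0.63 ± 0.47), Slc6a17 (-0.47 ± 0.35) and Slc7a7 (0.43 ± 0.42). In RPF they were Slc7a7 (0.63 ± 0.50), Slc6a6 (-0.46 ± 0.37), Slc43a2 (0.46 ± 0.40) and Slc36a1 (-0.31 ± 0.27), and in the ratio Slc36a1 (-0.27 ± 0.29), Slc38a3 (0.27 ± 0.63), Slc6a17 (0.19 ± 0.57) and Slc43a2 (-0.19 ± 0.66).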

How the data were processed

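RPF and total RNA were measured in B16F10 cells with shCtr or shOSGEP, 3 libraries per group, and groups and replicate numbers came from the sample labels. The authors deposited 2 tables of raw read counts per Ensembl gene, as whole numbers without normalisation, and every column could be tied to a sample. Per the labels and the study's methods, ribosomes were captured with a puromycin analogue after cycloheximide treatment, short fragments were size-selected, and reads were trimmed with Trim Galore 0.6.6 and cutadapt and aligned with STAR. Both GRCm38 and GRCm39 are named as builds. For footprints the methods describe a choice of fragment lengths, alignment to a coding transcriptome and a restriction to perfect matches. The deposited RPF table also holds rRNA and other non-coding genes, so those steps cannot be taken to describe it. How the deposited counts were made (counting step, annotation release, strand, reads with several matches) and the kit of the total RNA libraries are not given in the sources used here.

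Symbols, positions, lengths and codons came from GENCODE M21, in which 55227 of the 55487 gene IDs were found and 260 were not. Of the Ensembl genes named Ddit3, the one with the longest exon model was used. Counts were scaled by TMM, filtered with filterByExpr and tested with edgeR 4.0.16 (R 4.3.3, quasi-likelihood) over all genes of each table, without a block, and the ratio as the interaction over all 12 libraries with TMM within each assay. Two-sided p-values were Benjamini-Hochberg adjusted over all genes tested, with a threshold of 0.05. Log2 CPM used a prior count of 2. The standard error given with a fitted change was derived from the test, as the absolute log2 change divided by the square root of the F statistic. The fits were run on simulated counts with a single fixed dispersion, without pairing of replicates and without an outlying library. Those runs therefore do not show how the fits perform on the present libraries. Alternatives were the RLE scaling, other filters, protein-coding genes only, DESeq2 1.42.0, limma 3.58.1 (voom), the replicate block and leaving out libraries.

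Same-numbered libraries deviated together, with Pearson correlations across genes of 0.586, 0.508 and 0.665 for RPF and, for total RNA, 0.515, 0.542 and 0.287, so the numbers were taken to pair the samples. The 10 transporters and the other lists were chosen with earlier results of these data known. Every transporter, Osgep, the 4 other transporters with the smallest p and a few regulators were named by a fixed rule. Protein sequences were not used here.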

Additional observations from a re-analysis of the deposited data

How the results depend on the processing

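No transporter passed the adjusted threshold in any of the 16 alternatives for RPF, the 16 for total RNA or the 17 for the ratio, and the directions of Slc1a4, Slc6a9 and Slc1a5 in RPF and in total RNA held in all of them. Over all genes, the count of calls moved from 0 to 229 in RPF with no filter beyond 1 count, to 1 in RPF and 8 in total RNA with DESeq2, to 2 in total RNA with limma voom and to 1 in total RNA with the replicate block, and stayed at 0 in the ratio. The cause was not tested. With the replicate block the median change of the 9 transporters was -0.03 in RPF and 0.23 in total RNA, and with the replicate block by cell sample -0.06 in the ratio, and no call changed.

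Leaving out libraries gave RPF medians from -0.23 to 0.18, total RNA medians from 0.0008 to 0.37 and ratio medians from -0.25 to 0.11. The RPF median turned positive without shCtr replicate 1 (0.14), shCtr replicate 2 (0.18) or shOSGEP replicate 3 (0.12), and the ratio median was -0.25 without shOSGEP replicate 1. Single members changed sign when a library was left out, over these ranges. In RPF they were Slc7a11 (-0.55 to 0.28), Slc7a5 (-0.33 to 0.082), Slc3a2 (-0.30 to 0.62), Slc38a2 (-0.34 to 0.18) and Slc7a6 (-0.26 to 0.049). In total RNA they were Slc7a5 (-0.076 to 0.37), Slc7a1 (-0.23 to 0.20), Slc38a2 (-0.26 to 0.10) and Slc7a6 (-0.21 to 0.051). In the ratio they were Slc3a2 (-0.41 to 0.26), Slc38a2 (-0.23 to 0.18), Slc1a4 (-0.28 to 0.13), Slc6a9 (-0.22 to 0.15) and Slc7a6 (-0.22 to 0.17).

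Signs also turned under other settings. With limma voom these were Slc7a11 (0.18) and Slc3a2 (-0.092) in RPF, Slc38a2 (0.055) in total RNA, and Slc3a2 (-0.34) and Slc6a9 (-0.32) in the ratio. In total RNA Slc7a1 was at -0.0044 with RLE and with DESeq2, -0.0153 without a filter and -0.0262 with the replicate block. In the ratio, Slc1a4 was at 0.0068 with RLE, 0.0163 with protein-coding genes only and 0.0128 with DESeq2. Slc7a6 was at 0.0014, 0.0142 and 0.0101 under the same settings, 0.0012 with at least 10 counts in every library and 0.0004 with TMM over all 12 libraries. Slc3a2 was at -0.0086 and Slc6a9 at -0.0323 without a filter. With the replicate block by cell sample, Slc3a2 was at -0.0378, Slc38a2 at 0.0166 and Slc6a9 at -0.0647. Depth limits Slc7a3 in both assays, and Slc6a9 and Slc7a11 in RPF, where a library held as few as 64 and 96 counts.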
